A study of Mus musculus with 18 samples.

Results

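Wide peaks of Foxa proteins, those longer than 1000 bp, were examined in the deposited peak lists of 8 chromatin immunoprecipitation sequencing (ChIP-seq) libraries. Of the 60003 peaks in these lists, 373 were wider than 1000 bp. Of these, 43 lay in 1 window on each of chromosomes 19, 13 and 3 that had been set aside by the rule of choice, and the other 330 (0.550% of all peaks) were kept. Where they overlapped they were merged, which gave 244 wide regions among the 24999 regions that the 8 lists formed together. The members were chosen by their width in these same lists, so their number, width and score are a description with no test.

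All libraries came from induced hepatocyte-like (iHep) cells, that is C57BL/6 mouse embryonic fibroblasts from embryos at 13.5 days post coitum that were driven toward a liver-cell state by infection with Hnf4alpha and a Foxa protein. The Foxa protein was a domain swap in every one of these 8 libraries. Foxa1-N3 and Foxa2-N3 are Foxa1 and Foxa2 with the N-terminal domain of Foxa3, and Foxa1-C3 and Foxa2-C3 carry its C-terminal domain. Foxa3-N1 and Foxa3-N2 are Foxa3 with the N-terminal domain of Foxa1 or Foxa2, and Foxa3-C1 and Foxa3-C2 carry the C-terminal domain of Foxa1 or Foxa2. Thus 4 constructs began with the Foxa3 N-terminal domain and were precipitated with a Foxa3 antibody. The other 4 ended with the Foxa3 C-terminal domain and were precipitated with a Foxa1 antibody (Foxa1-C3, Foxa3-N1) or a Foxa2 antibody (Foxa2-C3, Foxa3-N2). Terminal domains and antibody therefore cannot be told apart in these data. A further library, titled 4a3_DA1, gave a list that the width rule did not use. Apart from its title, its labels name cells infected with Foxa1 and Hnf4alpha and an Hnf4alpha antibody, so what it holds is uncertain. Each construct had 1 library, no label gives replicate cultures, and sequencing depth is unknown because the lists hold peaks and not reads. No uninfected fibroblast library and no intact Foxa protein is among the 8, and whether the cells carried hepatocyte marker genes was not analysed here.

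The Foxa proteins are transcription factors with a forkhead DNA-binding domain. In liver they bind enhancers of hepatic genes and can reach their sites in closed chromatin, for which they are called pioneer factors. A single bound site gives a ChIP-seq peak about as wide as the DNA fragments allow, so a much wider peak can hold neighbouring sites that the peak caller joined, or an extended stretch of enriched chromatin. Positions are on mm9, counted from 1. Peaks were not assigned to genes and no sequence is shown, because the gene and sequence tables at hand are on another build.

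Wide peaks were spread very unevenly over the constructs. Foxa3-N2 had 106, Foxa2-C3 had 104 and Foxa3-C1 had 66, together 83.6% of the 330. Foxa3-N1 had 20, Foxa2-N3 had 19, Foxa3-C2 had 9, Foxa1-C3 had 5 and Foxa1-N3 had 1. These numbers followed the length of the lists only in part. Foxa3-C1 had 0.876% of its 7533 peaks in this class, while Foxa3-N1, with 7625 peaks, had 0.262%. In the 2 longest lists the share was 0.758% (Foxa2-C3, 13715 peaks) and 0.641% (Foxa3-N2, 16543 peaks), and it was lowest in Foxa1-C3 (0.104% of 4807) and Foxa1-N3 (0.105% of 956). The 3 lists with the most wide peaks were not all the lists with the widest ordinary peaks: the median width over the whole list was 462 bp in Foxa2-C3 and 455 bp in Foxa3-C1, but 417 bp in Foxa3-N2, close to the 413 bp of Foxa1-C3 and Foxa3-N1.

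Most wide peaks were only just past the threshold. Their median width lay between 1071 bp (Foxa1-C3) and 1107 bp (Foxa3-C1) in the lists with at least 5, and 187 of the 330 were no wider than 1100 bp. Just below, 350 peaks measured between 900 and 1000 bp. The narrowest members were 1001 bp (Foxa2-N3, chromosome 1, 181971986 to 181972986) and 1002 bp (3 peaks), and the widest peaks left out were exactly 1000 bp (5 peaks, in Foxa2-C3, Foxa3-C1 and Foxa3-N2). The class therefore has no natural edge, and a neighbour on either side differs from a member by a few bases. Only 9 of the 244 merged regions exceeded 1500 bp.

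**Figure D1:**
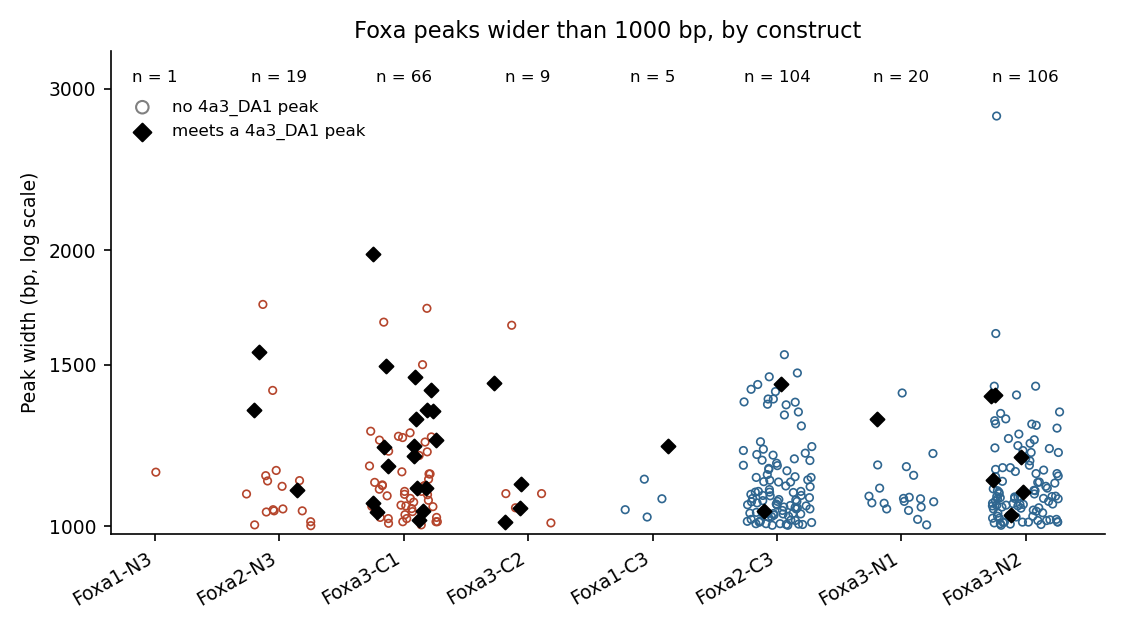
Width in bp (log scale) of each of the 330 wide peaks, 1 point per peak, by construct; red marks the 4 constructs with the Foxa3 N-terminal domain and blue the 4 with the Foxa3 C-terminal domain. Black diamonds are peaks that meet a peak of the 4a3_DA1 library, and 18 of the 66 Foxa3-C1 peaks are of that kind against 2 of the 104 Foxa2-C3 peaks.

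Wide peaks were mostly strong peaks of their own list. By the authors' score, 161 of the 330 (48.8%) stood in the strongest 10% of the list they came from, and 29 (8.79%) fell below its median score. The median score percentile was 89.3 in Foxa2-C3, 91.7 in Foxa3-N2 and 85.6 in Foxa3-C1. Foxa3-C1 differed in its lower tail, with 16 of those 29 peaks and a lowest percentile of 5.48, although single peaks as low as 4.57 occurred in Foxa3-N2. In every list width and score rose together across peaks, with a Spearman correlation from 0.559 in Foxa1-N3 to 0.764 in Foxa2-C3 (over 956 and 13715 peaks of 1 library each, a description across peaks that share that library and its caller settings).

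A wide region was wide in few lists but carried a peak in many. Of the 244 regions, 190 (77.9%) were wide in 1 list, 35 in 2, 12 in 3, 3 in 4, 2 in 5 and 2 in 6; the number wide in 7 or in all 8 was 0. In contrast, 190 regions carried a peak of some width in at least 4 lists, 51 in 7 lists and 45 (18.4%) in all 8. Of the 24654 regions without a wide peak, 1.96% were in all 8 lists, and 48% were in a single list against 5.74% (14) of the wide regions. A region had to be wide in at least 1 list to be a member and wide peaks were mostly strong, so this contrast is a description. Regions wide in 2 or more lists were in 7 or 8 lists more often (33 of 54, 61.1%) than those wide in 1 list (63 of 190, 33.2%). Being wide in a list requires a peak in it, so this difference follows in part from the definition.

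**Figure D2:**
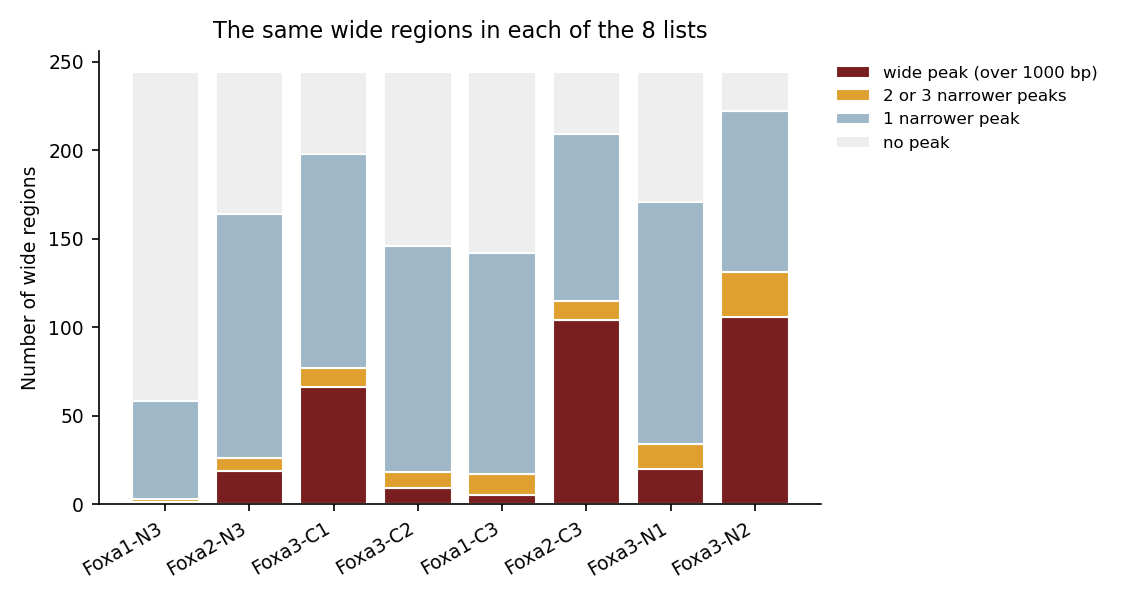
State of the 244 wide regions in each list: wide peak, 2 or 3 narrower peaks, 1 narrower peak or no peak, as stacked numbers of regions. Foxa3-N2 lacks 22 regions and Foxa1-N3, the shortest list, lacks 186.

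The 10 regions that were wide in most lists show how the same site differed between constructs. Region 1, on chromosome 5 (99665362 to 99666796), was wide in 6 lists. Its peak measured 1429 bp in Foxa2-C3, 1385 bp in Foxa3-N2, 1337 bp in Foxa2-N3, 1309 bp in Foxa3-N1, 1307 bp in Foxa3-C1 and 1223 bp in Foxa1-C3, where it was the widest peak of the list. The other 2 lists had a pair of narrower peaks there, of 397 and 405 bp in Foxa1-N3 and of 349 and 449 bp in Foxa3-C2. All 8 lists thus covered both parts of the region. The score percentile of the strongest peak of each list there ran from 67.9 in Foxa3-C2 to 99.2 in Foxa2-C3. The weaker peak of the Foxa1-N3 pair stood at 31.6. Ranks and percentiles place a peak within its own list, and because the lists differ in length they do not measure a change in binding between constructs. Region 2, on chromosome 12 (58417423 to 58418585), was also wide in 6 lists, from 1025 bp in Foxa3-N2 to 1163 bp in Foxa3-C1, but in Foxa1-N3 (823 bp) and Foxa3-C2 (846 bp) it was a single shorter peak and no list had 2 peaks. It was among the strongest sites of those 2 lists, with rank 9 and rank 16, although not past 1000 bp there. By width it was also among the widest peaks of both, at place 3 of 956 in Foxa1-N3 and 40 of 3594 in Foxa3-C2.

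Region 3, on chromosome 10 (96386689 to 96387917), was wide in 5 lists, absent from Foxa1-N3, a single 339 bp peak in Foxa3-C2 and 2 peaks of 520 and 461 bp in Foxa1-C3. Region 4, on chromosome 6 (113960678 to 113961948), holds the only wide peak of Foxa1-N3, 1145 bp at rank 18. The same site was wide at a lower place in other lists, with a score percentile of 60.8 for a 1014 bp peak in Foxa3-N2 and 48.7 for a 1105 bp peak in Foxa2-N3. In Foxa2-C3 it was 878 bp at percentile 11.1. Region 5, on chromosome 4 (9613037 to 9614114), was nearly equal in 7 lists, from 886 bp in Foxa3-C2 to 1050 bp in Foxa3-C1, and 268 bp in Foxa1-N3. The 1000 bp line runs through this group of values and splits them into 4 wide and 4 narrower.

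Region 6, on chromosome 1 (181971884 to 181973008), was wide in Foxa3-C1 (1125 bp, rank 19), Foxa3-C2 (1085 bp, rank 15), Foxa2-N3 (1001 bp, rank 85) and Foxa3-N1 (1060 bp, rank 166). All 4 of these peaks had a percentile of at least 97.8. The other 4 lists stood at 88.6 (Foxa1-N3), 81.1 (Foxa1-C3), 79.1 (Foxa3-N2) and 51.0 (Foxa2-C3). Region 7, on chromosome 15 (3197358 to 3198591), stood highest in Foxa2-C3 and Foxa3-N2, with percentile 98.8 (1221 bp) and 97.4 (1141 bp). It stood at 79.3 in Foxa2-N3, where it was 1044 bp wide, and Foxa3-C2 lacked it. Regions 8 to 10 were wide in 3 lists each. Region 8, on chromosome 12 (15327140 to 15328318), was 1 peak in all 8 lists, narrowest in Foxa1-N3 at 457 bp and widest in Foxa2-C3 at 1179 bp.

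Region 9, on chromosome 7 (135874339 to 135875714), reached 1376 bp in Foxa2-C3, 1150 bp in Foxa2-N3 and 1140 bp in Foxa3-C1. In Foxa3-N1, Foxa3-N2 and Foxa1-N3 it was a pair of peaks, and in Foxa1-C3 (558 bp) and Foxa3-C2 (385 bp) a single peak on the second side, which starts near 135875079 in Foxa3-N2. Its sides differed in strength: in Foxa3-N2 the second had rank 790 and the first 11324, and in Foxa3-N1 they had rank 353 and 3197. Region 10, on chromosome 10 (107881995 to 107883461), was wide in Foxa3-N2 (1421 bp), Foxa2-C3 (1358 bp) and Foxa3-C1 (1140 bp), a pair of peaks in Foxa3-C2 and Foxa3-N1, and 1 peak on the first side in Foxa2-N3 and Foxa1-C3 (516 bp in the latter).

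**Figure D3:**
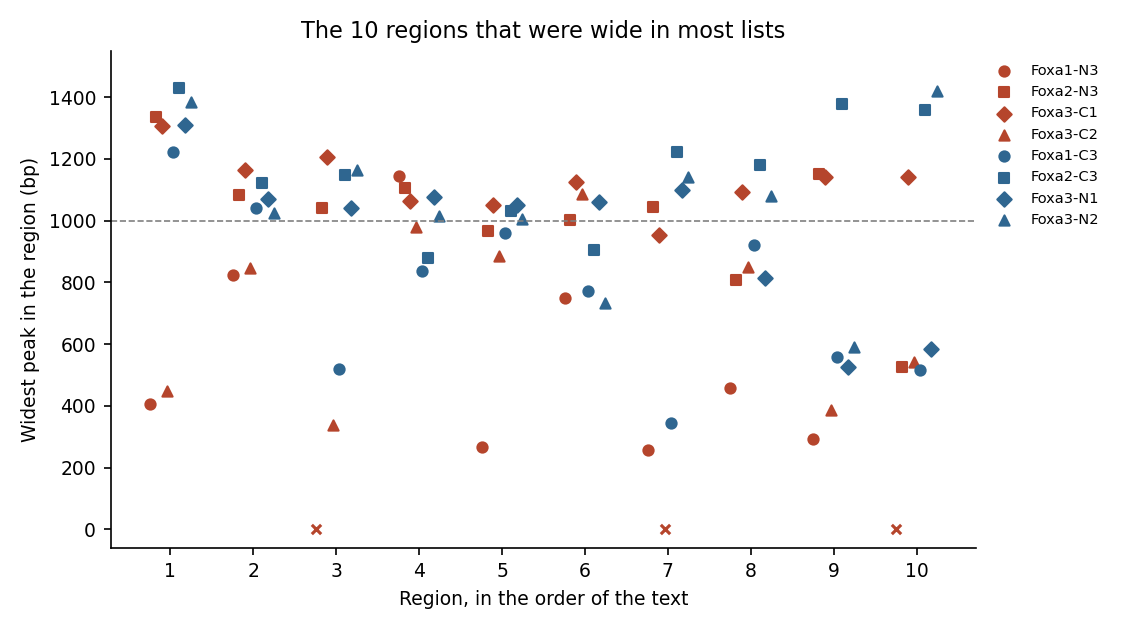
Width in bp of the widest peak of each list in the 10 regions that were wide in most lists, in the order of the text; crosses at 0 are lists without a peak and the dashed line is 1000 bp. In region 5 every list but Foxa1-N3 lies between 886 and 1050 bp, whereas regions 9 and 10 separate into values above 1100 bp and below 600 bp.

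One list's wide peak was in some regions matched by several narrower peaks of another. In 58 regions (23.8%) at least 1 list had 2 or more narrower peaks and none wider than 1000 bp. The share was 9.72% among Foxa peaks above the pooled median score and 10.4% for regions formed from peaks above 800 bp. The 91 such cases held 2 peaks in 90 and 3 peaks in 1, with gaps of 57 to 593 bp between neighbouring peaks (median 187 bp over 92 gaps). Of the regions without a wide peak, 0.207% held 2 or more peaks of one list, but their median length was 456 bp and few had room for a pair. Split regions were longer than the others, with a median of 1175.5 bp against 1083 bp. Foxa3-N2 split most often: where it had a peak but not a wide one, 25 of 116 regions (21.6%) were split, against 10.5% of 105 in Foxa2-C3, 8.33% of 132 in Foxa3-C1 and 3.51% of 57 in Foxa1-N3.

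The parts of a split region lay at nearly the same place in different lists. In the 57 regions with exactly 2 narrower peaks in some list, the midpoints of the pair were 641 bp apart (median, 475.5 to 933 bp). For the 23 regions split in 2 or more lists, the midpoint of a given side varied between lists by a median of 42 bp and at most 244.5 bp. The same side had the higher score in every splitting list in 15 of the 23. Of these 23 regions, 16 were split in only 2 lists, and no background was computed for these values. Lists with 1 narrower peak in the 57 regions had it on one side in 127 of 158 cases (80.4%), while 31 peaks spanned the gap. Among the 38 regions with at least 2 such one-sided peaks, they all lay on the same side in 33. The widest peak of Foxa2-C3 was of this kind: on chromosome 3 (122184945 to 122186482; 1538 bp, rank 1674), it faced 2 peaks in Foxa3-N1 (342 and 367 bp) and in Foxa3-N2 (854 and 434 bp), and 1 peak of 368 bp on the second side in Foxa1-C3. The widest peak of Foxa3-N1, 1397 bp on chromosome 2 (region 59057784 to 59059284), was 1410 bp wide in Foxa2-C3, and Foxa3-C1, Foxa3-C2 and Foxa3-N2 each had 2 peaks there. The only region split into 3 was on chromosome 1 (180148540 to 180149774), a weak 1235 bp peak of Foxa3-C1 (rank 6875) that met peaks of 441, 309 and 438 bp in Foxa3-N2.

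Sites chosen as wide in the other 7 lists were also wider than usual in the list left out. For each list, the regions were formed from the wide peaks of the other 7 alone, and the width of its own peaks there was set beside that of all its other peaks shared with some list. In Foxa2-C3, 58.1% of the 155 peaks at such sites were among the widest 10% of the list, against a background of 11.5% of its other shared peaks. In Foxa3-N2 the share was 52.2% of 180 (background 12.8%), in Foxa3-C1 48.5% of 169 (9.89%), in Foxa2-N3 48.5% of 165 (9.14%) and in Foxa3-N1 43.6% of 179 (10.4%). The shares were lower in Foxa1-C3 (37.3% of 153; background 9.5%), Foxa3-C2 (31.4% of 153; 8.66%) and Foxa1-N3 (26.7% of 60; 9.03%), and were above the background in all 8 lists. The median width of these peaks was lowest in Foxa1-N3 at 333.5 bp (other shared peaks 306 bp) and highest in Foxa2-C3 at 772 bp (486 bp). Each of these sites is counted in several lists, so the 8 comparisons are not independent and were not tested. They were also stronger than other shared peaks, with a median score percentile of 55.9 in Foxa1-N3 (other shared peaks 50.1) to 82.3 in Foxa3-N2 (64.1), and the part of strength in the widths was not tested.

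**Figure D4:**
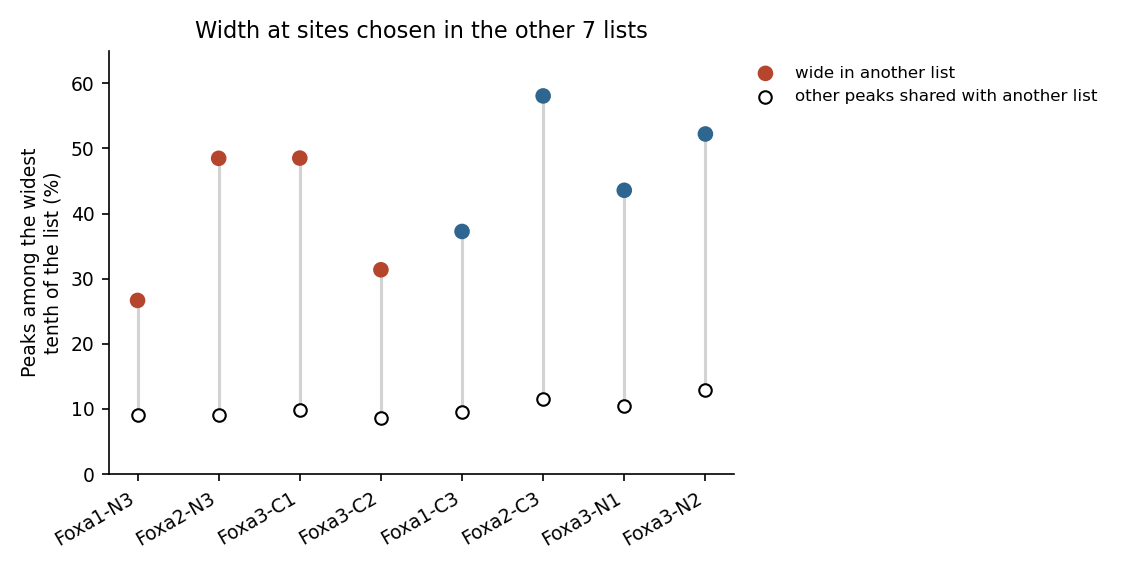
Percent of peaks that are among the widest 10% of their list, for sites wide in at least 1 of the other 7 lists (filled; red, Foxa3 N-terminal domain; blue, Foxa3 C-terminal domain) and for the other peaks shared with another list (open). The filled points run from 26.7% to 58.1% and the open points from 8.66% to 12.8%.

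The pair of lists with most wide regions in common was Foxa2-C3 and Foxa3-N2, which are also the lists with the most wide regions. They share both terminal domains and the antibody and differ in the DNA-binding domain. Of the regions wide in Foxa2-C3, 32 (30.8% of 104) were wide in Foxa3-N2 too, which is 30.2% of the 106 there. A further 19 were split in Foxa3-N2, 52 were a single narrower peak and 1 was absent. In the other direction, 13 of the Foxa3-N2 regions (12.3%) had no Foxa2-C3 peak. By share, some lists with fewer wide regions overlapped more. Of the regions wide in Foxa2-N3, 10 of 19 (52.6%) were wide in Foxa3-C1, and of those wide in Foxa3-C2, 5 of 9 (55.6%). Foxa3-C1 shared 12 wide regions with Foxa2-C3 (18.2% of 66) and 13 with Foxa3-N2 (19.7%), and it lacked a partner peak in 30.3% and 28.8% of cases. Foxa3-C2 differs from Foxa3-C1 in its C-terminal domain. It had a peak at 51 of the 66 Foxa3-C1 wide regions, wide in 5, split in 7 and narrower in 39. Depth, which also moves widths, is unknown. In 205 of the 229 regions with both wide and narrower peaks, the median score percentile was higher in the lists where the peak was wide. The medians over regions were 89.3 where wide and 61.9 where not. The highest percentile of a region lay in a list with a wide peak in 144 of the 229 (62.9%). Width and score rose together in every list, and places are compared in lists of different length, so this is a description.

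The overlap with the 4a3_DA1 library, which the width rule did not use, varied from list to list. Of the 244 wide regions, 23 (9.43%; 95% Wilson interval 6.36 to 13.7%) met at least 1 of its 698 peaks, against 0.673% of the regions without a wide peak. Of the 23 regions, 18 were wide in Foxa3-C1, 13 of them in that list alone, and without Foxa3-C1 the share was 4.93%. The 3 windows left out held 45 of the 698 peaks (6.45%). With those windows kept, 15.2% of the wide regions met 4a3_DA1. Longer intervals meet more peaks by their length alone, so the share was also read within each list by width. In Foxa3-C1 it was 1.52% up to 400 bp, 1.26% from 400 to 600 bp, 1.72% from 600 to 800 bp, 11.2% from 800 to 1000 bp and 27.3% above 1000 bp. In Foxa3-N2 it rose from 0.190% to 0.581%, 1.39%, 3.17% and 5.66% over the same classes. In Foxa2-C3 it also rose, at a lower level, from 0.163% to 0.379%, 0.503% and 1.93%, and was 1.92% above 1000 bp.

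The share of wide peaks that met a 4a3_DA1 peak was 27.3% in Foxa3-C1 (18 of 66; 95% Wilson interval 18.0 to 39.0%; peaks up to 1000 bp, 1.62%). In Foxa3-C2 it was 44.4% (4 of 9; 18.9 to 73.3%; 1.78%), in Foxa2-N3 15.8% (3 of 19; 5.52 to 37.6%; 0.906%) and in Foxa1-N3 0 of 1 (0.943%). With the Foxa3 C-terminal domain it was 1.92% in Foxa2-C3 (2 of 104; 0.529 to 6.74%; 0.361%), 5.66% in Foxa3-N2 (6 of 106; 2.62 to 11.8%; 0.518%), 5% in Foxa3-N1 (1 of 20; 0.888 to 23.6%; 0.316%) and 20% in Foxa1-C3 (1 of 5; 3.62 to 62.4%; 0.187%). Intervals cover counting error only. Divided by the share among peaks up to 1000 bp of the same list, the values of the 2 layouts overlapped. This ratio ran from 0 (Foxa1-N3) to 25.0 (Foxa3-C2) with the Foxa3 N-terminal domain. With the Foxa3 C-terminal domain it ran from 5.33 (Foxa2-C3) to 107 (Foxa1-C3, 1 of 5 wide peaks). It was 16.8 for Foxa3-C1 and 15.8 for Foxa3-N1. The mean share was 21.9 ± 18.7% for the 4 constructs with the Foxa3 N-terminal domain and 8.15 ± 8.07% for the other 4 (SD, n = 4 each). This difference of 13.7 percentage points was no larger than the spread among constructs (p = 0.257 by an exact permutation of the constructs, two-sided; 0.514 after adjustment over 3 factors; smallest possible p 0.0286). It was 21.0 points without Foxa1-N3, which has 1 wide peak, and 6.21 points without Foxa3-C2.

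With the 15 widest peaks of each list in place of the threshold, the shares of the 2 groups did not overlap, but the gap was narrow. The nearest lists had 3 of 15 (Foxa1-N3 and Foxa2-N3, Wilson interval 7.05 to 45.2% each) and 2 of 15 (Foxa3-N2, 3.74 to 37.9%). The intervals of these lists overlap widely, so the gap rests on very few peaks. The share was then 46.7% in Foxa3-C1, 33.3% in Foxa3-C2 and 20% in both Foxa1-N3 and Foxa2-N3, against 13.3% in Foxa3-N2 and 6.67% in each of Foxa1-C3, Foxa2-C3 and Foxa3-N1 (difference 21.7 points; exact two-sided permutation p = 0.0286, the smallest possible, n = 4 each; adjusted p = 0.0857, not past 0.05). These classes differ much in width, since the 15th widest peak measured 587 bp in Foxa1-N3, 893 bp in Foxa1-C3 and 970 bp in Foxa3-C2 but 1322 bp in Foxa2-C3. The only peak of Foxa1-N3 above 1000 bp did not meet 4a3_DA1, so all of its 20% came from narrower peaks. Above 1000 bp the 2 groups did overlap, with 20% in Foxa1-C3 against 15.8% in Foxa2-N3 and 0 of 1 in Foxa1-N3. Peaks up to 1000 bp were separated by layout. Their share was 0.906 to 1.78% in the lists with the Foxa3 N-terminal domain and 0.187 to 0.518% in the others. The order by layout was thus not particular to the 15 widest peaks. These 2 sets share peaks in Foxa1-N3, Foxa1-C3 and Foxa3-C2, where the 15th widest peak was below 1000 bp. Neither the DNA-binding domain (Foxa3 20.6 ± 18.97%, Foxa1 or Foxa2 9.43 ± 9.96%; exact permutation p = 0.343, adjusted p = 0.514) nor the partner protein (Foxa2 17.0 ± 19.2%, Foxa1 13.1 ± 12.7%; exact permutation p = 0.8, adjusted p = 0.8; SD, n = 4 each) gave a difference beyond the spread between constructs. The DNA-binding domain could also be compared within 4 pairs of constructs that share both terminal domains and the antibody. The share with the Foxa3 DNA-binding domain was higher by 27.3 points in Foxa3-C1 than in Foxa1-N3, by 28.7 in Foxa3-C2 than in Foxa2-N3 and by 3.74 in Foxa3-N2 than in Foxa2-C3, while Foxa3-N1 minus Foxa1-C3 was -15.0 points. The mean of the 4 pairs was 11.2 ± 20.9 points (SD; exact two-sided sign-flip permutation p = 0.375, smallest possible p 0.125), a design that cannot reach 0.05.

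**Figure D5:**
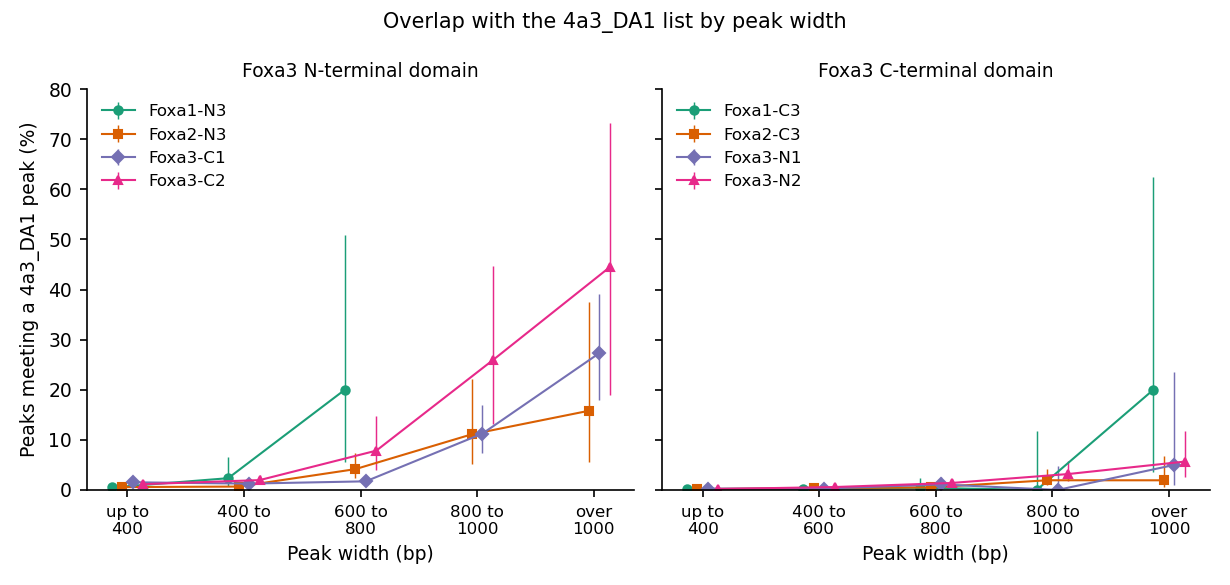
Percent of peaks that meet a 4a3_DA1 peak by width class in bp, for the 4 constructs with the Foxa3 N-terminal domain (left) and the 4 with the Foxa3 C-terminal domain (right), for classes with at least 5 peaks; bars are 95% Wilson intervals. Above 1000 bp Foxa3-C2 stands at 44.4%, Foxa3-C1 at 27.3% and Foxa2-C3 at 1.92%.

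Regions wide only in lists with the Foxa3 N-terminal domain met 4a3_DA1 in 17 of 55 cases. Those wide only with the Foxa3 C-terminal domain met it in 3 of 165 and those wide on both sides in 3 of 24. Of the 55, 41 were wide in Foxa3-C1 alone and held 13 of the 17, so this share rests mostly on 1 library. Regions wide in Foxa3-C2 alone met 4a3_DA1 in 2 of 3 cases, and those wide in Foxa2-N3 alone in 0 of 6. The regions that met it were found in fewer lists (median 4 of 8) than those that did not (median 6), and 1 of 23 was in all 8 lists against 44 of 221; these differences were not tested. Among the wide peaks of Foxa3-C1, the 18 that met 4a3_DA1 had a counterpart in Foxa3-C2 in 15 cases and in Foxa2-N3 and Foxa3-N2 in 11 each, but in Foxa1-C3 in 3 and in Foxa3-N1 in 4. The 48 that did not meet it had one in Foxa3-C2 in 36 cases, in Foxa1-C3 in 26 and in Foxa3-N1 in 32. Their median score percentiles were 84.7 and 85.6. Median widths were 1221.5 and 1094 bp.

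The 23 regions held 50 of the 698 peaks of 4a3_DA1, 15 of them among its 100 strongest. In 15 regions it had 2 or more peaks, and its peaks covered from 5.78 to 88.6% of a region's length (median 28.1%). The region with most, 5, lay on chromosome 3 (96361550 to 96362741), wide in Foxa3-C1 alone (1192 bp, rank 890) and 161.55 kb beyond the edge of the window set aside on that chromosome. The widest region of Foxa3-C1, 1979 bp on chromosome 17 (36053781 to 36055759), held 4 of its peaks and met peaks of 1 other list, a pair of 380 and 329 bp in Foxa3-C2. A region on chromosome 10 (21715462 to 21716796) also held 4, and no other Foxa list had a peak in it. Regions on chromosome 5 (115939266 to 115940761) and chromosome 14 (76904240 to 76905648) held 3 each, as did 3 further regions. The first of these was a strong 1496 bp peak of Foxa3-C1 (rank 79), a pair of narrower peaks in Foxa2-N3 and in Foxa3-C2, and a 656 bp peak in Foxa3-N2. The second was a 1409 bp peak of Foxa3-C1 and a 392 bp peak of Foxa3-C2.

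A few wide regions lay near one another. In all, 20 of the 244 wide regions had another wide region within 10 kb. Counting regions of any width as neighbours, 64.8% of the wide regions and 48.5% of the others had one within 10 kb. The 20 regions formed 8 groups, and those described here were picked with their values in view. The longest group, on chromosome 9 (3017681 to 3038366), held 5 wide regions in 20686 bp, all from Foxa3-N2, which had 18 peaks there. Foxa3-C1 had 1 peak there, the other 6 lists 0 and 4a3_DA1 0, and the strongest of the Foxa3-N2 peaks ranked 4772. This group included the widest member of all, 2801 bp (3035566 to 3038366; rank 8011). The start of the assembled mouse chromosome 9 is known for satellite repeats; the repeat content of these regions was not analysed here.

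On chromosome 10 (21713942 to 21719015), 3 wide regions followed each other in 5074 bp, all wide in Foxa3-C1. Foxa2-N3 and Foxa3-C2 had 1 peak each, Foxa1-N3 and the 4 constructs ending in the Foxa3 C-terminal domain had 0, and 4a3_DA1 had 10. On chromosome 7 (149760265 to 149763934), 2 neighbouring regions were wide in Foxa3-C1 and Foxa3-C2, the first of them also in Foxa2-N3, and the other 5 lists had no peak. That first region (149760265 to 149761992) held the widest peak of Foxa3-C2, 1656 bp, beside 1728 bp in Foxa3-C1 and 1406 bp in Foxa2-N3, at rank 405, 673 and 2021. The 4a3_DA1 library had 0 peaks in this group, and all lists with peaks in it used the Foxa3 antibody.

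On chromosome 9 (46036538 to 46040310), all 4 lists with the Foxa3 N-terminal domain had at least 2 peaks, as did Foxa3-N2, whereas Foxa2-C3 had 1 and Foxa1-C3 and Foxa3-N1 had 0. It included the widest peak of Foxa2-N3, 1745 bp (46038473 to 46040217). On chromosome 11 (101502730 to 101507493), 2 regions were wide in Foxa3-C1 (rank 12) or Foxa3-C2 (rank 36 for a peak of 1010 bp), and 4a3_DA1 had 9 peaks, its 2 strongest among them. Foxa2-N3 had a peak of rank 83 in this group, and Foxa1-C3, Foxa2-C3 and Foxa3-N1 had 0. Of the 8 groups, 7 had no peak of Foxa1-C3 or Foxa3-N1, the libraries with a Foxa1 antibody. Absence from both of these lists was common, at 24.6% of all wide regions and 63.4% of the regions without a wide peak, and the groups were picked after their values were seen. The exception, on chromosome 4 (144583053 to 144590755), was wide in Foxa2-C3 alone and had peaks in 5 lists.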

How the data were processed

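Deposited peak lists of 9 ChIP-seq libraries were used. Per the submitters' processing notes, the tools used were MACS2 2.1.0, BWA 0.6.2 and bedtools 2.16.2 and the build was mm9. Each list belongs to 1 library. The authors deposited 1 score per peak. No source used here states its kind, so scores were used only to rank peaks within a list (percentile 100 is the strongest). From the lists, peaks wider than 1000 bp were taken, those in 3 windows left out, and the rest merged where they overlapped by at least 1 bp. In each other list a region was wide, split (2 or more peaks, none wide), narrower (1 peak) or absent. Shares of wide peaks meeting a 4a3_DA1 peak were compared over constructs by an exact two-sided permutation test with Benjamini-Hochberg adjustment over 3 factors. The DNA-binding domain was also compared within 4 matched pairs of constructs by an exact sign-flip permutation, chosen after seeing the data. These p-values measure the spread between constructs, each of which is 1 library.

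The regions named were the widest peak of each list, the 10 wide in most lists, the 5 with most 4a3_DA1 peaks, the 5 split most and those nearest 1000 bp. The members, the windows and these rules were chosen with earlier results of these data known. Alternatives were other width thresholds, the windows kept, score minimums, the 15 widest peaks per list, other overlap rules and leaving out each construct. The scripts were tested on simulated data (20 of 20 sets recovered), and overlaps equalled those of bedtools 2.31.1 in 8 of 8 lists. Python 3.11.15, pandas 2.3.3 and scipy 1.17.1 were used. Input libraries were not analysed here, and no gene or sequence was read, since no mm9 annotation or genome was used here.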

Additional observations from a re-analysis of the deposited data

How the results depend on the processing

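The number of wide regions and their overlap with 4a3_DA1 depend on where the width threshold stands; the cause was not tested. Above 800 bp there were 843 regions, of which 5.58% met 4a3_DA1, 32.3% were wide in 2 or more lists and 10.4% were split. Above 1500 bp there were 8 regions, with 25% meeting 4a3_DA1, 12.5% wide in 2 or more lists, 75% with a peak in another list and 50% split. The difference by DNA-binding domain turned to -13.9 points there, with wide peaks left in 3 and 2 constructs. With the 3 windows kept, 15.2% of regions met 4a3_DA1. Among Foxa peaks above the pooled median score, 9.72% of regions were split. The difference by partner protein turned to -1.67 points with the 15 widest peaks of each list and to -0.470 with constructs of at least 5 wide peaks.

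Leaving out 1 construct at a time, the layout difference ranged from 6.21 to 21.0 points, the DNA-binding domain from 3.22 to 16.4 and the partner from -5.28 (without Foxa3-C2) to 8.90, with -0.470 without Foxa1-N3. The number of regions ranged from 176 to 244, the share meeting 4a3_DA1 from 4.93 (without Foxa3-C1) to 12.8%, wide in 2 or more lists from 15.6 to 22.3%, with a peak in another list from 90.5 to 95.6% and split from 18.2 to 23.8%. Of the recomputed differences between constructs, 44 kept their sign and stayed short of the threshold, although the layout difference ran up to 27.8 points above 1500 bp, and 5 changed sign. Of the recomputed numbers and shares of regions or peaks, 59 stayed within 1.5 times the number or within the 95% interval of the share, and 16 did not. Matching constructs on terminal domains and antibody, chosen after seeing the data, left the DNA-binding domain short of the threshold, with a mean of 11.2 points for the wide peaks (exact sign-flip permutation p = 0.375) and 11.7 for the 15 widest (p = 0.25 by the same exact permutation). For sites wide in another list, an overlap by peak midpoint, chosen after seeing the data, gave 26.7 to 58.8% among the widest 10%.

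No paired analysis was possible because each construct has 1 library, apart from the pairs of constructs matched by domain above. Depth is unknown, so a missing or narrower peak is not a measure of less binding, and lists of 956 to 16543 peaks are compared as deposited. Foxa1-N3 and Foxa1-C3 have 1 and 5 wide peaks, which leaves their shares with wide intervals.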
